A study of Mus musculus with 384 samples.

Results

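The 80 protein-coding genes of the cytosolic ribosome were followed through mouse mammary epithelial cells before and after the luminal layer was ablated. Members were taken by symbol: Rpl or Rps with a number and at most 1 closing letter (a, x, y or l), plus Rplp0, Rplp1, Rplp2 and Rpsa. They are 80 of the 49585 genes of the count table, and 71 of them were measured, that is, reached a mean of at least 5 CPM (reads per 1000000 reads in genes) over the 5 groups. The other 9, Rpl10l, Rpl23a, Rpl24, Rpl36, Rpl39l, Rpl3l, Rps12, Rps28 and Rps29, lay under that mean. The symbol rule leaves out some genes whose products also sit in the ribosome, such as Rps3a1, Rack1 and Fau.

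Cells were sorted one to a well on a 384-well plate and sequenced with a modified Smart-seq2 protocol, which makes whole-length cDNA without molecular identifiers. All groups carry the same strain label, K8rtta/TetO-DTA/K5CreER/Rosa-Tomato on a mixed background: a luminal keratin promoter (K8) drives the doxycycline-dependent activator of a diphtheria toxin transgene, and a basal keratin promoter (K5) drives an inducible Cre that can switch on Tomato. The WT groups are basal cells (44 kept of 50 wells) and luminal cells (43 of 50). The ablated groups, in which 0.2 mg doxycycline had been injected into the ducts 1 week earlier, are basal cells (71 of 91), luminal cells (76 of 91) and hybrid cells (85 of 92), a sorted population between both lineages. All were sorted as Tomato+ by CD29 and EpCAM after removal of CD140a, CD45 and CD31 positive cells. The labels name no animal and no age, so each group counts as 1 sample, and no test or p-value between groups is given. Intervals below are exact 95% intervals for the counting of reads or cells only, and reads from PCR copies are not independent molecules.

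A ribosome joins a small subunit, which decodes the mRNA, to a large subunit, which forms the peptide bond, and each holds 1 copy of nearly every ribosomal protein. The exception is the stalk of the large subunit, where Rplp0 anchors several copies of Rplp1 and Rplp2 and recruits the elongation factors. Most ribosomal protein mRNAs begin with a run of pyrimidines, the terminal oligopyrimidine or TOP motif, through which mTOR signalling sets their translation. Mammalian genomes also hold many processed pseudogenes of these genes, so a short read from one of them often matches several places.

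Median depth per kept cell ran from 677373 reads in ablated basal cells to 1372883 in WT luminal cells, with 118310 to 3835005 over single cells. Summed markers mostly followed the labels. The 12 basal markers held 22120 CPM in WT basal, 182 in WT luminal, 36580 in ablated basal, 19320 in hybrid and 6480 in ablated luminal cells. The 13 luminal markers held 1667, 30790, 1126, 15140 and 24680 CPM in that order. Single ablated luminal cells held 21.4 to 51140 CPM of basal markers. Their median was 1464 CPM, against 71.7 CPM in WT luminal cells. Milk protein genes held 53010 CPM in WT luminal cells against 3110 to 11750 elsewhere, and 7 fibroblast markers 130 to 2043 CPM. Endothelial markers reached at most 7.42 CPM, immune markers between 2.60 and 112 CPM, and haemoglobin and other red cell genes reached 795 CPM in hybrid cells, where 1 cell held 152700 CPM of them. The part of these other transcripts in the results below was not tested. Groups occupy adjoining wells of 1 plate, so group and plate position cannot be told apart, nor can ablation, injection, doxycycline and animal.

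Ribosomal protein reads were a slightly larger share of the library after ablation. They made up 2.21% of summed reads in WT basal cells (interval 2.209 to 2.218) and 1.98% in WT luminal cells (1.972 to 1.979). After ablation they made up 2.62% in basal (2.615 to 2.623), 2.59% in hybrid (2.591 to 2.597) and 2.39% in luminal cells (2.389 to 2.396). These intervals are narrow because many reads were counted, and the spread between cells was far wider. Single WT basal cells ran from 0.963% to 4.73% with a median of 2.03%, and WT luminal cells from 0.614% to 4.54% with a median of 2.12%. Ablated basal cells ran from 1.06% to 4.96% with a median of 2.56%, hybrid cells from 1.83% to 5.00% with a median of 2.55%, and ablated luminal cells from 0.963% to 3.89% with a median of 2.50%. All 5 ranges overlap. Of the 85 hybrid cells, 78 lay above the WT basal median. So did 55 of 71 ablated basal cells, and 49 of 76 ablated luminal cells lay above the WT luminal median. Hybrid cells were the most alike, with an interquartile range of 0.653 percentage points against 0.784 in WT basal cells and 1.02 to 1.03 in the other groups.

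**Figure D1:**
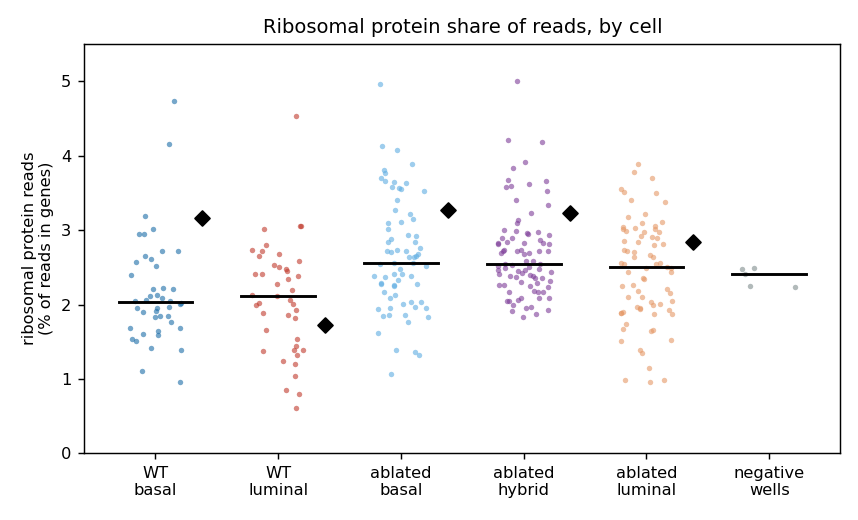
Share of reads in genes that fell on the 80 ribosomal protein genes (%), 1 point per kept cell, with the group median as a bar, the library of many cells of that group as a black diamond, and the 5 negative wells at the right. Medians lie at 2.03% and 2.12% in WT groups and between 2.50% and 2.56% in ablated groups, with wide overlap of cells.

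A library of many cells was made for each group, and it gave 3.17% for WT basal, 1.72% for WT luminal, 3.27% for ablated basal, 3.22% for hybrid and 2.85% for ablated luminal cells. In those libraries the ablated basal share was close to the WT basal share, and WT luminal stood lowest. In such pooled libraries fewer cells of a type and less RNA per cell cannot be told apart. The 5 negative wells held 196 to 319 ribosomal protein reads among 7930 to 13572 reads in genes, a share of 2.24% to 2.49%. Negative wells thus showed a share within the range of cells, on at most 13572 reads where the shallowest kept cell had 118310.

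The clearest difference between lineages lay inside the ribosomal protein pool, in the stalk. Rplp0, Rplp1 and Rplp2 together held 8.66% of ribosomal protein reads in WT basal and 9.78% in ablated basal cells. They held 13.3% in WT luminal, 14.3% in hybrid and 13.4% in ablated luminal cells. Medians over cells were 8.34% (range 2.82% to 15.8%) in WT basal and 9.08% (2.56% to 20.6%) in ablated basal cells. They were 12.4% (6.96% to 18.9%) in WT luminal, 13.9% (8.19% to 21.6%) in hybrid and 13.02% (4.62% to 18.8%) in ablated luminal cells. Both basal groups were low and the other 3 groups high, though cells of all groups overlapped. The libraries of many cells gave 8.35% and 9.91% for the basal groups against 14.25%, 14.2% and 12.5% for WT luminal, hybrid and ablated luminal cells. In the WT pair of these libraries the larger luminal stalk share went with fewer reads of the other members. All ribosomal protein reads there came to 3.17% in WT basal and 1.72% in WT luminal cells. The stalk share was chosen for description after its values were seen. Under all alternatives run, including each group's earlier and later wells, it stayed between 8.35% and 10.24% in basal groups and between 12.5% and 14.9% in the other groups.

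**Figure D2:**
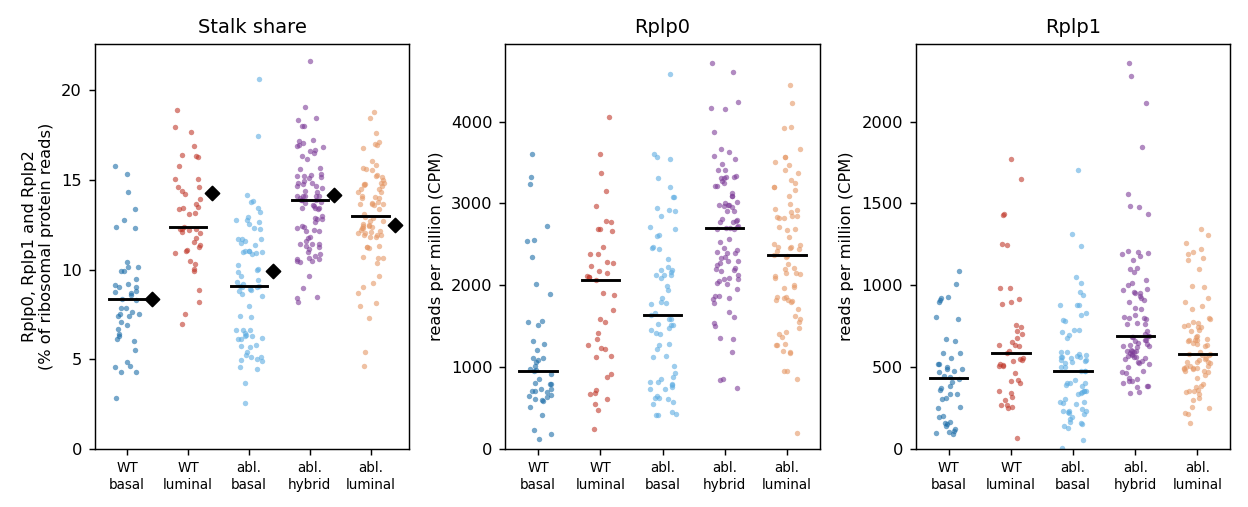
Left, share of ribosomal protein reads held by Rplp0, Rplp1 and Rplp2 (%), 1 point per kept cell, with medians as bars and libraries of many cells as black diamonds; middle and right, levels of Rplp0 and Rplp1 in CPM. Stalk medians are 8.34% and 9.08% in the basal groups and 12.4% to 13.9% in the other groups.

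Rplp0, the stalk base (ENSMUSG00000067274, chr5:115559467-115563727 on GRCm38), carried most of this. Of the 50-base windows of its transcript 58.2% occur in no other annotated gene, against 40% for Rplp1 and 34.95% for Rplp2, so part of their reads could be shared with copies. In single WT cells it ran from 120.3 to 3603 CPM with a median of 956 in basal cells, and from 238 to 4055 CPM with a median of 2058 in luminal cells. In ablated glands it ran from 415 to 4579 CPM (median 1633) in basal, from 748 to 4720 CPM (median 2700) in hybrid and from 193 to 4450 CPM (median 2365) in luminal cells. Most WT basal cells thus lay low, with a few as high as luminal cells. Summed over cells, Rplp0 stood at 1298, 1872, 1913, 2777 and 2427 CPM in WT basal, WT luminal, ablated basal, hybrid and ablated luminal cells. The log2 ratio (taken throughout after adding 10 CPM to each level) was 0.52 for WT luminal against WT basal, 0.56 for ablated basal against WT basal and 0.37 for ablated luminal against WT luminal. It was 0.54 for hybrid against ablated basal and 0.19 for hybrid against ablated luminal. The libraries of many cells gave -0.15 for WT luminal against WT basal, so the WT lineage difference in the level of Rplp0 was not seen there.

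Rplp1, an outer stalk protein, stood at 441 CPM in WT basal, 608 in WT luminal, 483 in ablated basal, 741 in hybrid and 616 in ablated luminal cells. Its log2 ratio was 0.45 between the WT lineages and 0.61 for hybrid against ablated basal cells, with 0.13 and 0.02 for ablated against WT in basal and luminal cells. Many-cell values for the first pair of ratios were 0.10 and 0.00. Rplp2, its partner, did not follow: it stood at 177, 139.5, 165, 183 and 165 CPM in the same order, lowest in WT luminal cells. Within the stalk, the larger share outside basal cells came from Rplp0 and Rplp1, but the summed other members were also lower there. Large-subunit reads stood at 9431 CPM in WT basal and 8350 in WT luminal cells, small-subunit reads at 10790 and 8786. In ablated basal, hybrid and luminal cells these were 11690, 11160 and 10300 CPM, and 11940, 11090 and 10420 CPM. In the libraries of many cells Rplp0 gave -0.15 and Rplp1 0.10 for the WT pair. All ribosomal protein reads there came to 3.17% in WT basal and 1.72% in WT luminal cells. Small-subunit reads came to 1.14 per large-subunit read in WT basal cells and to 0.994 to 1.05 in the other groups, while the libraries of many cells gave 0.91 for WT basal and 0.983 to 1.19 for the others.

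Counted levels of members differed widely although the ribosome holds nearly all of them in equal number. Per kb of transcript, members with high means over the 5 groups included Rpl4 at 2547 CPM per kb, Rpl8 at 2170, Rps3 at 1869 and Rps9 at 1703, all core proteins of their subunits. The lowest measured members per kb were Rpl5 at 4.90, Rpl17 at 7.52, Rps23 at 8.44, Rps6 at 11.03 and Rpl28 at 12.2 CPM per kb. In each group 5 genes held 53.3% to 56.3% of all ribosomal protein reads. Rps12, a small-subunit protein, had 0 reads in 4 groups, a count that permits at most 0.0650 CPM in WT basal cells and less in the others, and 3 reads in all hybrid cells. The order of the 71 members was nearly the same in all groups, with Spearman's rho between 0.948 and 0.983 across genes.

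The level followed how much of a gene's transcript is unlike the rest of the transcriptome. Each member's transcript was read in 50-base windows, and the share of windows found in no other annotated gene was taken as its unique share. Rps3 is 97.0% unique, Rpl8 92.1% and Rpl4 83.6%, whereas Rps27 is 1.35% unique, Rpl5 6.16%, Rps12 9.89% and Rps6 15.4%. Over the 80 members the level per kb correlated with the unique share at rho 0.41. Without Rpl3l, Rpl10l and Rpl39l, copies with restricted expression that were set aside after their values were seen, rho was 0.57 over 77 members. With 100-base windows the values were 0.49 and 0.65. The number of pseudogenes sharing a window gave -0.37 and -0.52, and transcript length gave 0.01 and 0.04. These are descriptions across genes that share the same libraries. Again without Rpl3l, Rpl10l and Rpl39l, members with at least 50% unique windows had a median of 266 CPM per kb (27 members). Those below had 48.4 (50 members). The sources used here do not say how reads that match several places were counted. Levels of members with little unique sequence are therefore uncertain, and reads of a member and of its copies cannot be told apart there.

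**Figure D3:**
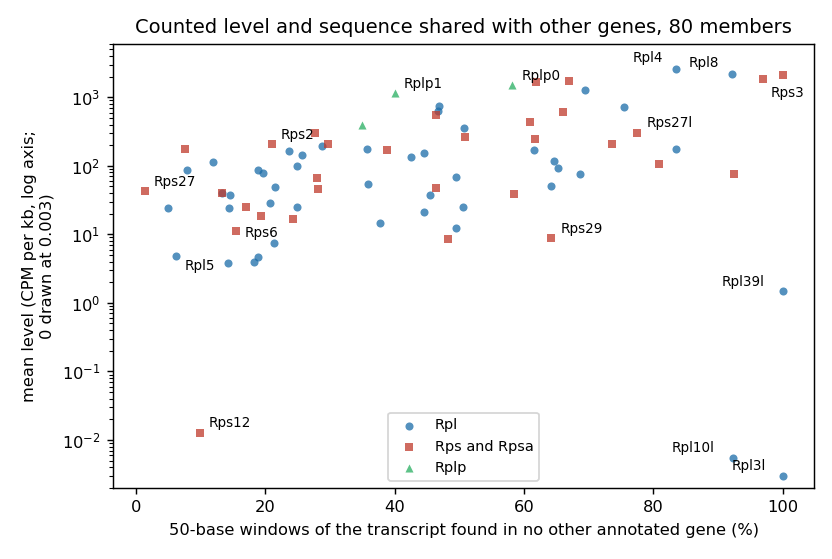
Mean level over the 5 groups (CPM per kb of transcript, log axis) against the share of 50-base windows found in no other annotated gene (%), 1 point per member and 80 in all. Rpl4, Rpl8 and Rps3 lie at the upper right, Rps12, Rps27, Rpl5 and Rps6 at the left, and Rpl3l, Rpl10l and Rpl39l at the lower right.

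The number of members seen per cell differed little. After thinning each cell to 100000 reads, a median of 38 members had at least 5 reads in WT basal cells (range 30 to 48), 42 in WT luminal (20 to 51), 41 in ablated basal (26 to 52), 44 in hybrid (36 to 54) and 44 in ablated luminal cells (26 to 50). Without thinning the medians were 51.5, 58, 53, 61 and 62. Of the 71 measured members, 24 were highest in WT basal, 20 in ablated basal, 16 in hybrid, 6 in ablated luminal and 5 in WT luminal cells. Among all 11106 measured genes the shares were 24.3%, 21.8%, 13.6%, 21.3% and 19% in that order of groups.

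Ribosomal protein genes had a narrower range of log2 ratios than all measured genes in each of the 5 comparisons, without matching for abundance. In WT luminal against WT basal cells their median was -0.19, against 0.01 for all measured genes. There 2 of 71 members were at least 1.5-fold higher, where 32.6% of all measured genes were, and 12 were at least 1.5-fold lower, where 31.2% were. Their quartiles were -0.44 and 0.05, against -0.82 and 0.89 for all genes. In ablated basal against WT basal cells the median was 0.15 (quartiles -0.21 and 0.35), with 5 members higher (background 30.3%) and 6 lower (background 24.6%), and all genes stood at 0.05. In ablated luminal against WT luminal cells the median was 0.21 (quartiles 0.00 and 0.36), equal to that of all genes, with 5 members higher (background 30.2%) and 1 lower (background 14.2%). Both median-of-ratios and TMM scaling, which set the median of all genes near 0, gave -0.10 and -0.07 here. Hybrid against ablated basal cells gave 0.00 (quartiles -0.20 and 0.22) with 3 higher (background 29.7%) and 2 lower (background 18.5%), where all genes stood at 0.14. Hybrid against ablated luminal cells gave 0.09 (quartiles -0.01 and 0.20) with 1 higher (background 15.3%) and 2 lower (background 12.8%), where all genes stood at -0.01. Several comparisons share a group, so their medians are not independent. In single cells the members' share past 1.5-fold was under the background in all 5 comparisons and both directions. The libraries of many cells differed from this: in WT luminal against WT basal 5 members were higher (background 32%) and 30 lower (background 26.9%), and in ablated against WT luminal 37 were higher (background 43.3%) and 6 lower (background 21%). The split of members past 1.5-fold also turned with the scaling. Under median-of-ratios scaling ablated against WT luminal cells had 5 members higher and 6 lower, ablated against WT basal 2 and 10, and hybrid against ablated basal 0 and 8.

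**Figure D4:**
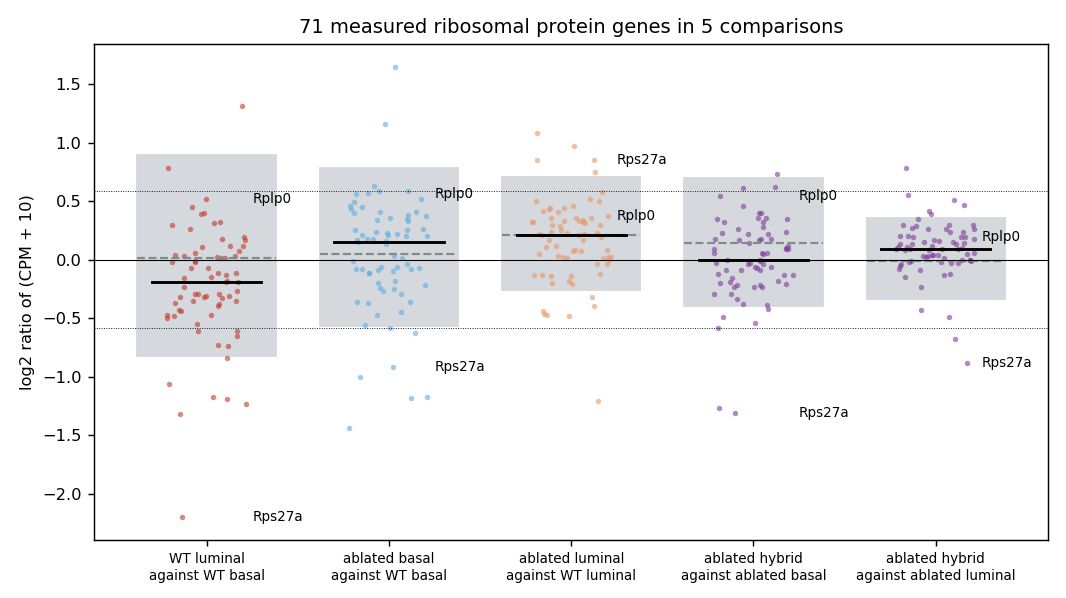
Log2 ratio of (CPM + 10) for the 71 measured members in 5 comparisons, 1 point per gene, with the members' median as a black line, the quartiles of all 11106 measured genes as a grey box with their median dashed, and dotted lines at 1.5-fold. Most members lie inside the grey boxes, and Rplp0 and Rps27a are named.

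Abundant members moved least among the members, and no share was taken over other genes of like abundance. Of the 30 members with a mean of at least 100 CPM, 0 were 1.5-fold lower in any of the 5 comparisons (background 12.8% to 31.2%). In each of 3 comparisons 1 of them was 1.5-fold higher (background 29.7% to 30.3%). These were Rpl7 in ablated against WT basal, Rpl13a in ablated against WT luminal and Rplp1 in hybrid against ablated basal cells. The log2 ratio of Rpl7 was 0.63, but -0.09 in the libraries of many cells. Rpl4, a core large-subunit protein and the most abundant member, stood at 3643, 3196, 4623, 4216 and 3911 CPM in WT basal, WT luminal, ablated basal, hybrid and ablated luminal cells. Rps3, which lines the mRNA entry channel, stood at 3670, 2651, 4361, 3740 and 3406 CPM. Both were highest in ablated basal and lowest in WT luminal cells. Rpl13a, a large-subunit protein, stood at 95.8 CPM in WT and 197 CPM in ablated luminal cells (log2 ratio 0.97). An overlapping annotated gene or microRNA covers 59.3% of its exon bases.

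Members with the largest ratios were mostly scarce ones whose reads came from few cells. Past 1.5-fold higher were Rpl11 and Rpl27a in WT luminal against WT basal cells, Rpl11, Rpl35a, Rpl37a, Rpl7 and Rps6 in ablated against WT basal cells, and Rpl13a, Rpl15, Rpl21, Rpl28 and Rps27a in ablated against WT luminal cells. In hybrid against ablated basal cells Rpl12, Rpl34 and Rplp1 were higher and Rpl35a and Rps27a lower, and in hybrid against ablated luminal cells Rpl9 was higher and Rpl21 and Rps27a lower. Rps27a, which encodes ubiquitin fused to a small-subunit protein, stood at 102 CPM in WT basal cells, 14.4 in WT luminal, 49.1 in ablated basal, 13.9 in hybrid and 33.8 in ablated luminal cells. Its log2 ratio was -2.20 between the WT lineages, yet 1 cell held 36.5% of its WT basal reads and the WT basal median was 2.01 CPM. The ratio was -1.84 without the top cell of each group and 0.02 in the libraries of many cells. Rpl12, a protein near the stalk base, stood at 63.2 CPM in WT basal and 17.02 in ablated basal cells (log2 ratio -1.44). There 1 WT basal cell held 57.95% of the reads, and without the top cells the ratio was -0.75. Rpl27a stood at 29.7 CPM in WT basal and 88.3 in WT luminal cells, a log2 ratio of 1.31 that became 2.09 without the top cells, since 1 basal cell held 68.7% of that group's reads.

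Rpl15, a core large-subunit protein, stood at 78 CPM in WT basal, 28.5 in WT luminal, 116 in ablated basal, 106 in hybrid and 71.3 in ablated luminal cells. Its log2 ratio of 1.08 for ablated luminal against WT luminal cells was 1.30 without the top cells and 2.45 in the libraries of many cells. Rpl9 gave the lowest ratio in that comparison, -1.21, with 37.1 CPM in WT and 10.4 in ablated luminal cells and -0.74 in the libraries of many cells. Rpl21 gave 0.85 there, but -2.40 in the libraries of many cells, and Rps13 gave -1.18 in ablated against WT basal cells, but 0.10 in those libraries. For such members the direction depended on which libraries were read.

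Members with roles outside the ribosome showed no common direction. Rpl5 and Rpl11, which bind Mdm2 when ribosome assembly stalls, stood at 12.2, 15.2, 7.27, 7.28 and 8.26 CPM and at 4.51, 15.0, 11.9, 17.9 and 12.7 CPM in WT basal, WT luminal, ablated basal, hybrid and ablated luminal cells. Rpl5 gave log2 ratios of -0.36 in basal and -0.46 in luminal cells after ablation, and -0.50 and 0.19 in the libraries of many cells. Rpl11 gave 0.59 in basal and -0.14 in luminal cells, and 0.95 and 1.11 in those libraries. Rpl5 is 6.16% unique and shares 46.6% of its exon bases with Fam69a. Trp53, which that arm stabilises as protein, stood at 137.5, 93.5, 314, 294 and 224 CPM, and Cdkn1a, a target of it, at 1666, 476, 443, 416 and 455 CPM. Rps6, the substrate of S6 kinase, stood at 2.79 CPM in WT basal and 18.5 CPM in ablated basal cells (log2 ratio 1.16, and 0.68 in the libraries of many cells). At least 5 of its reads, without thinning, were seen in 6 of 44 WT basal cells and 17 of 71 from ablated basal wells.

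Rpsa, also known as a laminin receptor, stood at 70.3, 55.8, 82.1, 87.8 and 82.8 CPM in the same order, with WT luminal lowest. Rps19, whose human counterpart is mutated in Diamond-Blackfan anaemia, stood at 396, 323, 375, 319.5 and 341 CPM. Rpl22, Rpl38 and Rps4x likewise stayed within 1.5-fold, with log2 ratios from -0.44 to 0.52 over the 5 comparisons. These 5 members were each detected with at least 5 reads in 38 or more of 44 WT basal cells, which is the level of evidence the scarcer members lack.

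Of 4 copies in the pairs with a symbol ending in l, only Rps27l, a relative of Rps27, was measured. Rps27 stood at 27.1, 14.4, 8.56, 15.5 and 7.42 CPM and Rps27l at 156, 177, 111, 131.5 and 180 CPM in WT basal, WT luminal, ablated basal, hybrid and ablated luminal cells. The named parent thus had fewer reads than its relative in all 5 groups. The coding sequences differ at 61 of 255 bases (76.1% identical), but 292 of the 296 windows of Rps27 also occur in the copy Rps27rt, whereas Rps27l is 77.6% unique. Their first 120 coding bases are shown from the reference, 5′ to 3′, with the 28 differing bases in capitals, since they let reads of this pair be told apart.
Rps27: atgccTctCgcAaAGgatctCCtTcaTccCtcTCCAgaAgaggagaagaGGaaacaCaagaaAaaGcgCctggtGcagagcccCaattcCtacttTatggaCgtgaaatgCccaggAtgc
Rps27l: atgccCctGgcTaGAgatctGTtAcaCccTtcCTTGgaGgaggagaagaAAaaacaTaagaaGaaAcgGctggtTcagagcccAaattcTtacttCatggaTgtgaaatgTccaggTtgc

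Rpl3l, the muscle form of Rpl3, had 0 reads in all groups, Rpl10l, a testis form, had 2 reads in WT luminal cells and 0 elsewhere, and Rpl39l had 176 reads in WT basal cells, 26 in hybrid cells and at most 1 in the other groups. Their parents stood at 22.8 to 48.1 CPM (Rpl3), 51.5 to 86.9 CPM (Rpl10) and 93.2 to 124.2 CPM (Rpl39).

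Grouped by direction, 15 of the 71 members (21.1%) were lower in both luminal groups and the hybrid group than in both basal groups, where 14.4% of all measured genes were. Among them were Rpl10a, Rpl13, Rpl26, Rpl29, Rpl3, Rpl30, Rpl38, Rpl7a, Rps19, Rps2, Rps21, Rps24 and Rps27a. The opposite order held for 3 members (4.23%), Rpl11, Rpl27a and Rplp1, and for 23.1% of all genes. In single cells after ablation 10 members (14.1%) were at least 1.2-fold higher in both basal and luminal cells, namely Rpl13a, Rpl15, Rpl37a, Rpl4, Rpl41, Rpl6, Rpl8, Rplp0, Rps26 and Rps6, where 20.6% of all genes were. At least 1.2-fold lower in both were 5 members (7.04%), Rpl10, Rpl31, Rpl5, Rps2 and Rps27, where 8.79% of all genes were. These 4 patterns were chosen after the values were seen.

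Rps2, a small-subunit protein at the mRNA entry, had a lower summed level after ablation while a copy of it appeared. In basal cells the drop lay in the later wells. Cut at the middle kept well, earlier ablated basal wells held 292.5 CPM and later ones 160.3 CPM, against 296.5 and 252.4 CPM in WT basal cells. Over all wells Rps2 stood at 276, 210, 228, 168 and 157 CPM in WT basal, WT luminal, ablated basal, hybrid and ablated luminal cells. Rps2-ps13, annotated as a processed pseudogene at chrX:52898588-52899469 of GRCm38, stood at 0.303, 0.225, 54.1, 182 and 162 CPM in the same order. With at least 5 reads it was seen in 1 of 44 WT basal cells, 0 of 43 WT luminal cells (by a limit of 3 cells, at most 6.98% with that many reads), 29 of 71 ablated basal cells, 84 of 85 hybrid cells and 75 of 76 ablated luminal cells. A further 12 WT luminal and 5 WT basal cells held 1 to 4 reads. The libraries of many cells held 0 reads of it in the WT groups and in ablated basal cells, 2 in hybrid and 1 in ablated luminal cells. They therefore did not show the copy that nearly every hybrid single cell showed. Rps2 and the copy together came to 277, 210.3, 282, 350 and 319 CPM, which is nearly equal in the basal groups and higher after ablation in luminal cells. The copy is 99.2% identical to the Rps2 coding sequence, with 7 of 882 bases different. The first 120 coding bases from the reference show how little a read has to tell the genes apart, with the 2 differing bases in capitals.
Rps2: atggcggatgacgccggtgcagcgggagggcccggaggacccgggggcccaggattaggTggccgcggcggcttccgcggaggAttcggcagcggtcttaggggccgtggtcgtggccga
Rps2-ps13: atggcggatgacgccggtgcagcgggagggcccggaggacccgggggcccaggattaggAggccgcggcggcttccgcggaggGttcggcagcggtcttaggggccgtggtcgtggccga

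Across cells of a group, Rps2 and Rps2-ps13 correlated at rho -0.36 in ablated basal cells (71 cells), 0.45 in hybrid (85 cells) and 0.46 in ablated luminal cells (76 cells), as a description. The ablated basal value pools earlier wells, with 0.299 CPM of the copy and 292.5 of Rps2, and later wells, with 110.1 and 160.3 CPM. A second copy, Rps24-ps3 at chrX:79195047-79195448, stood at 2.23, 1.00, 30.5, 37.8 and 11.1 CPM. It was present in the libraries of many cells after ablation, with 140 reads in basal, 93 in hybrid and 128 in luminal cells, against 8 and 0 in WT basal and luminal cells. All 277 pseudogenes named after a member held 164, 166, 288, 412 and 359 CPM together, at most 0.0412% of reads in genes.

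These copies broke along the order of wells inside groups that carry 1 label. In ablated basal cells the first plate lines, E and F, held Rps24-ps3 at 43.5 and 52.1 CPM and Rps2-ps13 at 0.097 and 0.435 CPM. The last lines, H and I, held Rps24-ps3 at 2.32 and 1.16 CPM and Rps2-ps13 at 147.1 and 146.5 CPM, and line G held both. In ablated luminal cells Rps24-ps3 stood at 1.47 to 4.45 CPM in lines I to K and at 35.5 and 26.3 CPM in L and M, whereas Rps2-ps13 stood at 113 to 176 CPM throughout. All lines of hybrid cells held both. At least 5 reads of both copies were seen in 3 ablated basal, 84 hybrid and 32 ablated luminal cells. The labels do not say whether the wells of a group come from 1 animal, and what separates these wells was not tested.

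**Figure D5:**
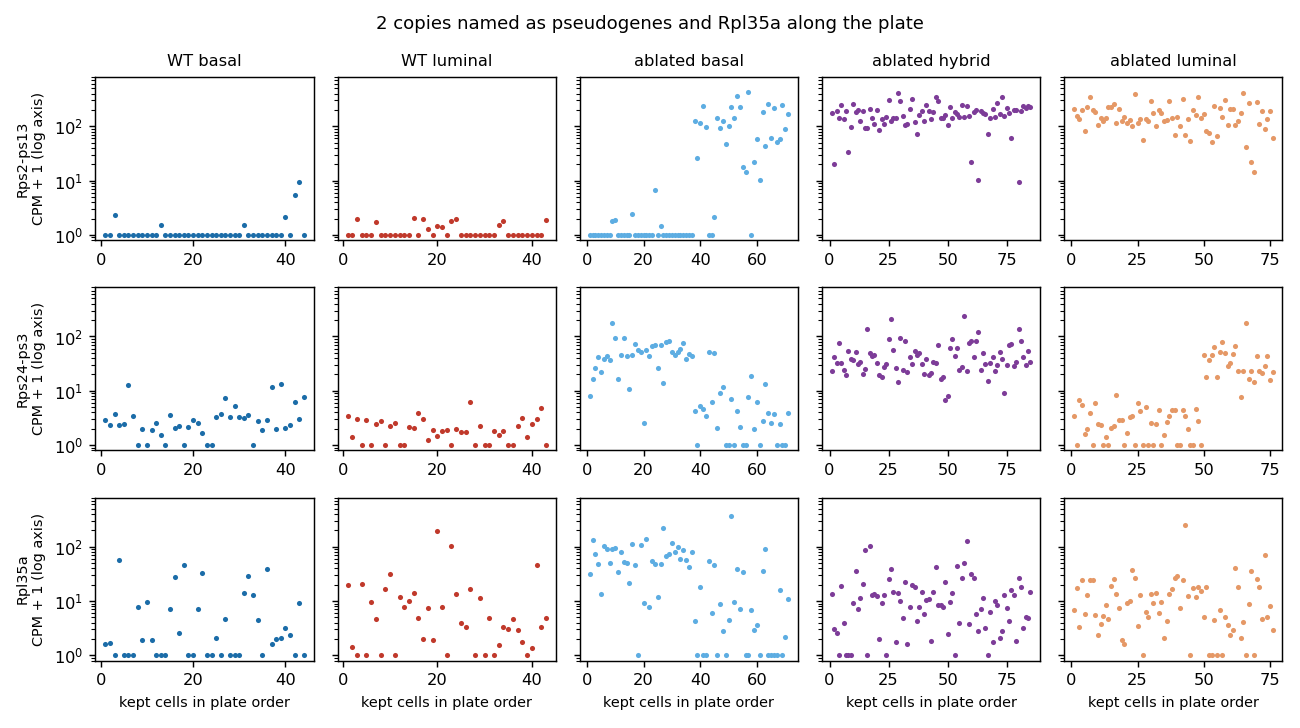
Levels of Rps2-ps13, Rps24-ps3 and Rpl35a (CPM + 1, log axis) against the order of kept cells on the plate within each group, 1 point per cell. In ablated basal cells Rps24-ps3 and Rpl35a are high in the earlier wells and Rps2-ps13 in the later ones, and in ablated luminal cells Rps24-ps3 is high only in the later wells.

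In ablated basal cells a member followed the same break. Rpl35a, a large-subunit protein, gave the highest ratio of all members in ablated against WT basal cells, 1.65, with 45.5 against 7.62 CPM. It stood at 63.5 and 62.3 CPM in lines E and F and at 11.1 and 6.10 CPM in H and I. In ablated luminal cells Rpl35a did not step with Rps24-ps3, at 11.3, 7.44, 18.6, 9.31 and 32.1 CPM in lines I to M. Hybrid lines held it at 6.38 to 18.7 CPM. Cut at the middle kept well, earlier ablated basal wells held 62.9 CPM and later ones 27.3 CPM, against 8.81 and 6.22 CPM in WT basal cells. The ratio rested mostly on the earlier wells, and the library of many cells gave 2.04. Rplp0 in ablated basal cells stood at 2022, 2198, 1907, 1246 and 2422 CPM in lines E to I, all but line H above the highest WT basal line at 1475 CPM. For the whole family the earlier and later wells of ablated basal cells gave ribosomal protein shares of 2.74% and 2.50%. Between those wells 3 members were at least 1.5-fold higher and 5 lower in the later ones, against backgrounds of 27.3% and 27% of genes.

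Abundant ribosomal protein genes varied together from cell to cell. For the 30 members with at least 100 CPM, the median correlation (Spearman's rho) of a member with the summed level of the others was 0.34 in WT basal, 0.64 in WT luminal, 0.44 in ablated basal, 0.44 in hybrid and 0.63 in ablated luminal cells. For other genes of that abundance the medians were between -0.12 and 0.02. For 38 mitochondrial ribosomal protein genes, taken at a lower limit of 50 CPM, they were between -0.11 and 0.06. Rps27l had the lowest value of the 30 members in every group, from -0.25 in WT luminal to 0.24 in ablated luminal cells. Cells of a group share library preparation and scaling to total reads, so these values are given without a test. The share of translation factors and other TOP mRNAs followed the ribosomal protein share, with rho from 0.55 in hybrid to 0.83 in WT luminal cells. In WT luminal cells the ribosomal protein share also went with milk protein genes (rho 0.55), with fewer detected genes (-0.56) and with lower luminal markers (-0.49). The other 4 groups did not all share these relations: rho ran from -0.03 to 0.28 for milk protein genes, from -0.36 in hybrid to 0.30 in WT basal cells for detected genes, and from -0.43 in ablated luminal to 0.37 in ablated basal cells for luminal markers.

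Start sites of the family were read for letters that recur among them. RefSeq promoter windows on GRCm38.p6, 250 bases before to 50 after the start, were matched for 60 of the 80 members. A run of at least 8 pyrimidines touching the 10 bases either side of the start was found in 26 of 60 members (43.3%) and in 13.3% of 16516 genes. The letters CCGGAAG, the core of ETS family sites, were found on either strand in 40% against 12.3%, and C as the start base in 31.7% against 13.96%. CACGTG, the E-box that Myc binds, was found in 8.33% against 8.08%, AAGATGGC, a YY1 core, in 6.67% against 3.27%, and TATAAA in 8.33% against 12.9%. Windows of 60 bases, from 45 before the start to 15 from it on, are shown on the gene's strand with the longest pyrimidine run near the start in capitals. They were chosen to set the abundant Rpl4, Rps3 and Rplp0 beside the scarce Rpl27a and Rps6 and the pair Rps27 and Rps27l.
Rpl4, chr9:64173342-64173401, plus strand: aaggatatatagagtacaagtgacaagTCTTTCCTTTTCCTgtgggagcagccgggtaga
Rps3, chr7:99483695-99483754, minus strand: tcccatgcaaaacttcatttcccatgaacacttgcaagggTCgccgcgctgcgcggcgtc
Rplp0, chr5:115559422-115559481, plus strand: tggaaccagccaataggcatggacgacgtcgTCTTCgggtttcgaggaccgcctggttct
Rpl27a, chr7:109519150-109519209, plus strand: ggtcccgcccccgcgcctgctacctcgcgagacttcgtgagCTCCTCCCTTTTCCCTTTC
Rps6, chr4:86857353-86857412, minus strand: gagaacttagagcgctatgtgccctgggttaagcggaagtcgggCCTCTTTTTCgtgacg
Rps27, chr3:90213634-90213693, minus strand: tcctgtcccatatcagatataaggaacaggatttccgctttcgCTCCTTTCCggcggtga
Rps27l, chr9:66946041-66946100, plus strand: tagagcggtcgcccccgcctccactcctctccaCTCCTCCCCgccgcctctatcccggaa
A long run stood beside abundant Rpl4 and scarce Rpl27a alike, while Rps3 and Rplp0, among the most abundant members, had runs of 2 and 5 bases in this window. Rps27 and Rps27l both had a run of 9 bases. RefSeq starts of these genes lie 0 to 48 bases from the GENCODE gene start, and a match or its lack is a description of the letters only.

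Genes that supply or use ribosomes were read beside the members. Translation factors and other TOP genes (24 measured) had medians of 0.10, 0.38, 0.21, 0.04 and 0.09 in the comparisons WT luminal against WT basal, ablated against WT basal, ablated against WT luminal, hybrid against ablated basal and hybrid against ablated luminal. The elongation factor Eef2, which the stalk recruits, stood at 1568, 2051, 2387, 2804 and 2432 CPM in WT basal, WT luminal, ablated basal, hybrid and ablated luminal cells. Its groups fell in the same order from lowest to highest as those of Rplp0. Eef1a1, which brings aminoacyl-tRNA, stood at 3149, 3915, 4215, 4419 and 4160 CPM. Rack1, a small-subunit scaffold outside the symbol rule, stood at 1554, 1348, 2039, 2096 and 1798 CPM, and Rps3a1 at 336, 261, 417, 379 and 320.1 CPM.

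Of 32 measured ribosome biogenesis factors, 15 were at least 1.5-fold higher and 1 lower in ablated against WT luminal cells, where 30.2% and 14.2% of all measured genes were, and their median was 0.42. In ablated against WT basal cells 5 were higher and 13 lower, beside 30.3% and 24.6% of all genes, with a median of -0.11. In WT luminal against WT basal cells 10 were higher and 14 lower (32.6% and 31.2% of all genes), with a median of -0.12. Hybrid cells had 11 higher and 5 lower against ablated basal (29.7% and 18.5%, median 0.20) and 1 higher and 8 lower against ablated luminal cells (15.3% and 12.8%, median -0.16). Nop2, an rRNA methyltransferase, stood at 16.5 CPM in WT and 83.1 CPM in ablated luminal cells, and Ddx21, a nucleolar helicase, at 28.3 and 105.3 CPM. Mitochondrial ribosomal protein genes (75 measured), which serve a separate ribosome, had medians of 0.46 for WT luminal against WT basal and 0.38 for hybrid against ablated basal cells, where cytosolic members stood at -0.19 and 0.00. For hybrid against ablated luminal cells the order was the other way, -0.22 against 0.09, and for ablation they stood at 0.16 in basal and 0.18 in luminal cells, where cytosolic members stood at 0.15 and 0.21. Of 19 measured regulators, 2 were at least 1.5-fold higher and 9 lower in WT luminal against WT basal cells (32.6% and 31.2% of all genes). Mtor stood at 70.3 CPM in WT basal and 10.8 CPM in WT luminal cells, and Larp1, which binds TOP mRNAs, at 72.4 and 24.4 CPM. Myc stood at 511 and 258 CPM in those groups, and Max, which went the other way, at 28.8 and 82.4 CPM. These lists were described only by their values.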

How the data were processed

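The labels describe 384 wells of 1 plate: 374 single-cell wells, 5 libraries of many cells and 5 negative wells. The authors deposited raw read counts per gene and well with no normalization. Per the submitters' processing notes, cutadapt 1.13, STAR 2.5.2b, HTSeq 0.6.0, Seurat and GRCm38 were used, without roles. Annotation version, strand and the handling of reads with several matches are not given in the sources used here. Spike-ins (92 sequences, 11 reads) were not used.

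Symbols and positions were taken from GENCODE M21 (GRCm38), which holds 49326 of the 49585 gene identifiers. Of the single-cell wells, 319 with at least 100000 reads in genes, 1000 genes and at most 20% mitochondrial reads were kept, and 55 were left out. Wells that might hold more than 1 cell were not sought. Kept cells of a group held 46165993 to 95990962 reads together. Reads were summed per group and expressed as CPM. Levels carry exact Poisson and shares exact Clopper-Pearson intervals, at 95%. Log2 ratios were taken after adding 10 CPM, and genes averaging 5 CPM or more across groups (11106 genes) counted as measured. With 1 sample per group no test was run, and a gene counts as higher or lower at 1.5-fold (0.585 on the log2 scale). Windows of 50 and 100 bases of 1 transcript per member, the shortest complete principal one, were compared with all annotated transcripts. The ratio script was tested on simulated data. Python 3.11.15, numpy 2.4.6, pandas 2.3.3, scipy 1.17.1 and edgeR 4.0.16 (for TMM factors only) were used.

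Members named are the 4 highest and 4 lowest ratios of each comparison, the 5 highest and 5 lowest measured levels per kb, pairs with a symbol ending in l, members known for a role of their own, and up to 4 genes of each other list. Members and lists were chosen with earlier results of these data known. Chosen after values were seen were also the stalk share, the 4 group patterns, the window measure, the choice of transcript, the copies of Rps2 and Rps24, the split by well order and the sequences shown. Alternatives changed the cell filters, the weights of cells, the totals, the scaling, the added CPM, the minimum level, the fold and the cells used. A few genes are not reported here by name.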

Additional observations from a re-analysis of the deposited data

Results flagged for a closer look

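Rps27a gave a log2 ratio of -0.92 for ablated against WT basal cells and 0.85 for ablated against WT luminal cells, so the direction differed between lineages, which was not tested. Its level rested on few cells, with 36.5% of WT basal reads in 1 cell, and the libraries of many cells gave -0.45 for the luminal pair.

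Of the pseudogenes named after a member, 4 had a highest group level of at least 10 CPM that was at least 10-fold above another group. Rps2-ps13 reached 181.7 CPM and Rps24-ps3 reached 37.82 CPM, both in hybrid cells and both described with the order of wells above. Rps2-ps9 reached 16.81 CPM in WT luminal cells, where the highest cell held 239.5 CPM and the median cell 0. Rpl13-ps5 reached 11.03 CPM in WT basal cells, where the highest cell held 269 CPM and the median cell 0. What lies behind these levels was not tested.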

How the results depend on the processing

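Each group is 1 sample of cells from unnamed animals, so the lack of replicate animals limits all these values. Depth of reads limits scarce members as well. Thinning lowered the median number of members seen per WT basal cell from 51.5 to 38. No paired analysis was possible because the labels give no replicate numbers and no test was run.

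Among the medians of member ratios, WT luminal against WT basal was -0.49 in the libraries of many cells, and ablated against WT luminal 0.62 there. Scaling moved the latter to -0.10 (median-of-ratios) and -0.07 (TMM), since all measured genes shifted by 0.21 in that comparison. Hybrid against ablated basal was -0.10 in the libraries of many cells, -0.20 with median-of-ratios and -0.13 with TMM scaling. Hybrid against ablated luminal was 0.00 in the libraries of many cells, 0.15 in earlier and 0.01 in later wells. Ablated against WT basal was 0.24 for members with at least 50% unique windows, 0.24 for those with at least 100 CPM and 0.26 in earlier wells. Its range over all alternatives was -0.03 to 0.26, so the direction of that median was not firm.

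The share of ribosomal protein reads is given for WT basal, WT luminal, ablated basal, hybrid and ablated luminal cells in that order. Libraries of many cells gave 3.168%, 1.721%, 3.268%, 3.223% and 2.846%, and equal weight per cell 2.17%, 2.08%, 2.66%, 2.693% and 2.446%. Totals without mitochondrial genes gave 2.278%, 2.02%, 2.717%, 2.668% and 2.454%, and totals without the 20 most abundant other genes 2.446%, 2.303%, 2.973%, 2.888% and 2.571%. Adding pseudogene reads to their parents gave 2.23%, 1.992%, 2.648%, 2.635% and 2.429%. Earlier wells gave 2.20%, 1.891%, 2.738%, 2.648% and 2.366%, and later wells 2.229%, 2.056%, 2.495%, 2.546% and 2.431%. Without the cell with most ribosomal protein reads the first 4 groups gave 2.138%, 1.967%, 2.611% and 2.603%. Without a mitochondrial limit WT luminal gave 1.963%, hybrid 2.613% and ablated luminal 2.374%, and hybrid gave 2.59% with at least 200000 reads per cell and 2.588% with at most 10% mitochondrial reads. In each of these settings both ablated lineages stood above their WT lineage. Median-of-ratios and TMM scaling were not applied to these shares. With both scalings the median member ratio of ablated against WT luminal cells was negative. The remaining cell filters moved the share by less than its counting interval.

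Counts of members past 1.5-fold were least stable in the libraries of many cells and in the earlier wells. Over all alternatives 0 to 6 were higher and 0 to 30 lower in WT luminal against WT basal, 1 to 17 and 0 to 14 in ablated against WT basal, and 0 to 37 and 0 to 6 in ablated against WT luminal cells. The ranges were 0 to 13 and 0 to 10 for hybrid against ablated basal, and 0 to 8 and 0 to 5 for hybrid against ablated luminal cells.

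For single members, 104 ratios had 1664 values under the alternatives, of which 68 moved by over 1.5-fold. Ratios past 1.5-fold changed sign in 14 of these values, which are given next. Smaller ratios changed sign in 85, of which 27 were in the libraries of many cells. In the libraries of many cells WT luminal against WT basal gave 0.02 for Rps27a, 3.08 for Rpl21 and 0.14 for Rps27. Ablated against WT basal gave 0.10 for Rps13, 2.32 for Rps27 and -0.09 for Rpl7, and ablated against WT luminal gave -2.40 for Rpl21 and -0.45 for Rps27a. Hybrid against ablated basal gave 1.16 for Rps27a and -1.89 for Rpl34, and hybrid against ablated luminal 0.85 for Rps27a. In later wells Rpl15 gave 0.07 between the WT lineages, Rpl12 -0.14 for hybrid against ablated basal and Rpl9 -0.43 for hybrid against ablated luminal cells. The cause was not tested. The cut at the middle kept well was set after the order of wells was seen, and it lies near the break of the copies in ablated basal cells but not in ablated luminal cells. The alternatives by well order, by unique windows, by 100 CPM and without the top cell of each gene were added after the data were seen.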
